A study of Rattus norvegicus with 12 samples.

Results

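The BCL2 family decides whether the outer membrane of the mitochondrion is opened, the step that commits a cell to intrinsic apoptosis. Its 10 members described here were chosen by gene symbol from a list of the best known regulators, and all 10 were found among the 17337 genes of the count table. They are the anti-apoptotic guardians *Bcl2*, *Bcl2l1*, *Bcl2l2* and *Mcl1*, the pore formers *Bax* and *Bak1*, and the BH3-only genes *Bad*, *Bid*, *Bcl2l11* and *Bbc3*. The question was whether their mRNA differed in the striatum between rats at different times after methamphetamine (MA) self-administration, and between these rats and rats labelled non-addicted.

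Striatal RNA of 12 male wild-type Sprague–Dawley rats, trained as young adults, was sequenced, 1 library a rat. There were 4 rats in each of 3 groups, and by the labels all 12 had passed through 16 days of MA self-administration. MA12 rats were killed 12 h and MA24 rats 24 h after the last session, with MA taken by lever press under a fixed ratio of 1 infusion per press. The labels call the remaining group non-addicted and give no time of collection for it. The study describes no group of that name, so that these rats took MA rests on the labels alone. No samples labelled as the saline (S) or M rats of the study were analysed here, so by the labels no comparison has a drug-free control. Since 12 h and 24 h of abstinence also fall at different hours of the day, abstinence and hour of the day cannot be told apart. The numbers of all 4 MA24 rats and of MA12 rats 4N and 7N carry an N at the end, and those of the non-addicted rats do not. What N stands for is not given in the sources used here, so for non-addicted vs. MA24 the kind of number and the group cannot be told apart.

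Guardian proteins bind and hold the pore formers and the BH3-only proteins. BH3-only proteins carry stress signals: they occupy the guardians or activate BAX and BAK1, which then assemble in the outer membrane and let cytochrome c out. In adult neurons the balance among these proteins is known to set how readily a cell dies after injury or toxic exposure, and much of their control lies in phosphorylation, cleavage and protein turnover, which mRNA counts do not show.

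The libraries held between 17908962 and 23850284 counts on genes. No library repeated another of its group: over the 18 pairs of rats that shared a group, chi-square per degree of freedom was 9.72 to 28.0. Pairs of rats from different groups were not checked in this way. All 10 markers of striatal projection neurons were counted, with a summed level of 14230 to 17910 CPM (the usual unit of a gene's counts relative to its library's total), while 6 markers of cortical neurons summed to 6.79 to 14.2 CPM. In bulk tissue, fewer cells of a type and less RNA per cell cannot be told apart. Levels below are log2 CPM after TMM scaling (trimmed mean of M values; prior count 2), and group values are mean ± SD over 4 rats. Values per rat are given in the order 9, 11, 12 and 13 for non-addicted, 21, 31, 4N and 7N for MA12, and 9N, 14N, 15N and 16N for MA24. Levels of different genes are not compared with each other, since no transcript lengths were used.

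None of the 10 members was a DEG in any comparison. A DEG had to reach an adjusted p below 0.05 in edgeR's quasi-likelihood test together with a fold change (FC) of at least 1.5. In MA24 vs. MA12, 0 of 10 members passed these thresholds, against 2.44% of the 10754 genes tested (262 DEGs), and 1 member, *Bcl2*, had an unadjusted p below 0.05, against 23.7% of genes. DESeq2 and edgeR's likelihood ratio test each called 1 of 8 members tested there, again *Bcl2*. The share of all genes called by these tests is not given here, so the 2.44% is no background for them. In non-addicted vs. MA12, edgeR called 0 of 10 members, against 0.214% of genes, and 0 members had an unadjusted p below 0.05, against 12.4% of genes. In non-addicted vs. MA24, edgeR called 0 of 10 members, against 0.363% of genes, and *Bcl2* alone had an unadjusted p below 0.05, against 17.5% of genes. DESeq2 and the likelihood ratio test called 0 members in both comparisons with non-addicted rats. The values of the 4 rats of one group overlapped those of the other group for all 10 members in all 3 comparisons, whereas groups did not overlap for 15.6% of genes in MA24 vs. MA12, 7.12% in non-addicted vs. MA12 and 10% in non-addicted vs. MA24. Each pair of comparisons shares a group, so they are not independent of each other.

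**Figure D1:**
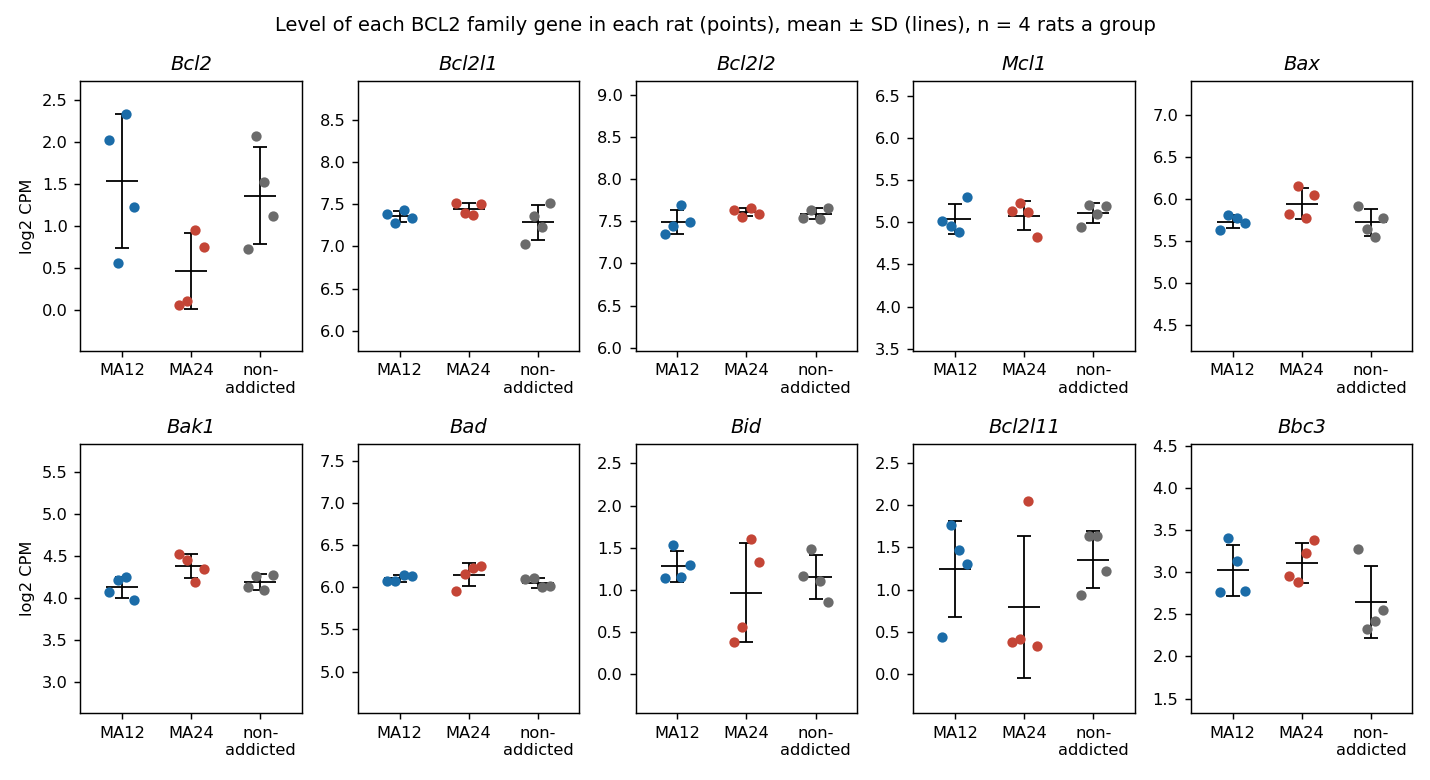
Level of each of the 10 genes in each of the 12 rats, as log2 CPM (y axis; every panel spans the same range of log2 units around its own centre), with 1 point per rat and lines for mean ± SD over the 4 rats of MA12, MA24 and non-addicted. Points of *Bcl2*, *Bid* and *Bcl2l11* are spread widely within groups, those of *Bad* and *Bcl2l2* lie close together, and the groups overlap in every panel.

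The windows before the annotated starts of the members with the widest spread between rats of a group, *Bcl2* and *Bcl2l11*, differ in base composition. They are the 250 bases before the gene start in the GRCr8 assembly, from RefSeq, and not from the rn6 assembly of the counts. RefSeq promoter entries matched 8 of the 10 members, the exceptions being *Bax* and *Bbc3*, with 11 windows in all. Both sequences are printed 5′ to 3′ in the direction of transcription, in lower case since neither motif searched was found. The *Bcl2* window is chr13:23366901-23367150, minus strand, and that of *Bcl2l11* is chr3:135819792-135820041, plus strand.
Bcl2: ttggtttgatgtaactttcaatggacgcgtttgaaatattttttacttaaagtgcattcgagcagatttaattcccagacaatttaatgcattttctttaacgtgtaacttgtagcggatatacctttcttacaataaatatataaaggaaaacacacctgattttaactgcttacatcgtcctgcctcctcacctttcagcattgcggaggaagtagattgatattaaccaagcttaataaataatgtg
Bcl2l11: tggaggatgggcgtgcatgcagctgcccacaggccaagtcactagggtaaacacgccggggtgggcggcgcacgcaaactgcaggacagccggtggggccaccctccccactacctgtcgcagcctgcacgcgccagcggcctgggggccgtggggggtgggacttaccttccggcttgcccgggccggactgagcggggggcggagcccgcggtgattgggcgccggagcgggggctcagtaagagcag

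The *Bcl2* window has a GC content of 33.6% and that of *Bcl2l11* 72.0%. Of 33469 windows of the same length, 4.19% were lower than *Bcl2* and 5.67% higher than *Bcl2l11*, around a median of 51.2%. The cAMP response element TGACGTCA and the E-box CACGTG, both of which read the same on either strand, were in 0 of the 11 member windows, against 1.59% and 5.59% of all windows. This describes the letters of these windows only.

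Among the guardians, *Bcl2*, which gives the family its name and holds BAX and BH3-only proteins in check at the mitochondrion and the endoplasmic reticulum, differed most. Its counts were 94, 33, 105 and 40 in MA12 rats, 22, 20, 36 and 30 in MA24 rats and 30, 83, 68 and 40 in non-addicted rats. As log2 CPM these were 2.02, 0.56, 2.33 and 1.23 in MA12, 0.06, 0.11, 0.96 and 0.75 in MA24, and 0.73, 2.07, 1.53 and 1.12 in non-addicted rats. MA24 rats were uniformly low, whereas both other groups held high and low rats. MA24 rats 9N and 14N lay below all MA12 rats, but MA12 rat 31 lay within the MA24 range. The group levels were 1.54 ± 0.80 in MA12, 0.47 ± 0.45 in MA24 and 1.36 ± 0.57 in non-addicted rats.

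In MA24 vs. MA12 the log2FC of *Bcl2* was -1.23 (SE 0.39, 95% confidence interval -2.05 to -0.40) and the edgeR adjusted p was 0.0726. Its unadjusted p was 0.00571 in edgeR, and the two-sided exact permutation test over the 70 splits of 4 rats against 4 gave p = 0.0857, where 0.0286 is the smallest p this design allows. The call turned on the test and on 1 rat: the adjusted p was 0.0325 with DESeq2, 0.0353 with edgeR's likelihood ratio test, and 0.0353 in the quasi-likelihood test without MA12 rat 31, where the log2FC was -1.48. Over all 18 other settings the log2FC kept its sign, between -1.48 and -0.92, and the adjusted p lay between 0.0325 and 0.195. Within the rats whose number ends in N, 4 MA24 and 2 MA12, it was -1.43 with an edgeR adjusted p of 0.0810. *Bcl2* was among the key genes that the study picked on libraries that include these, so its direction is not independent evidence.

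**Figure D2:**
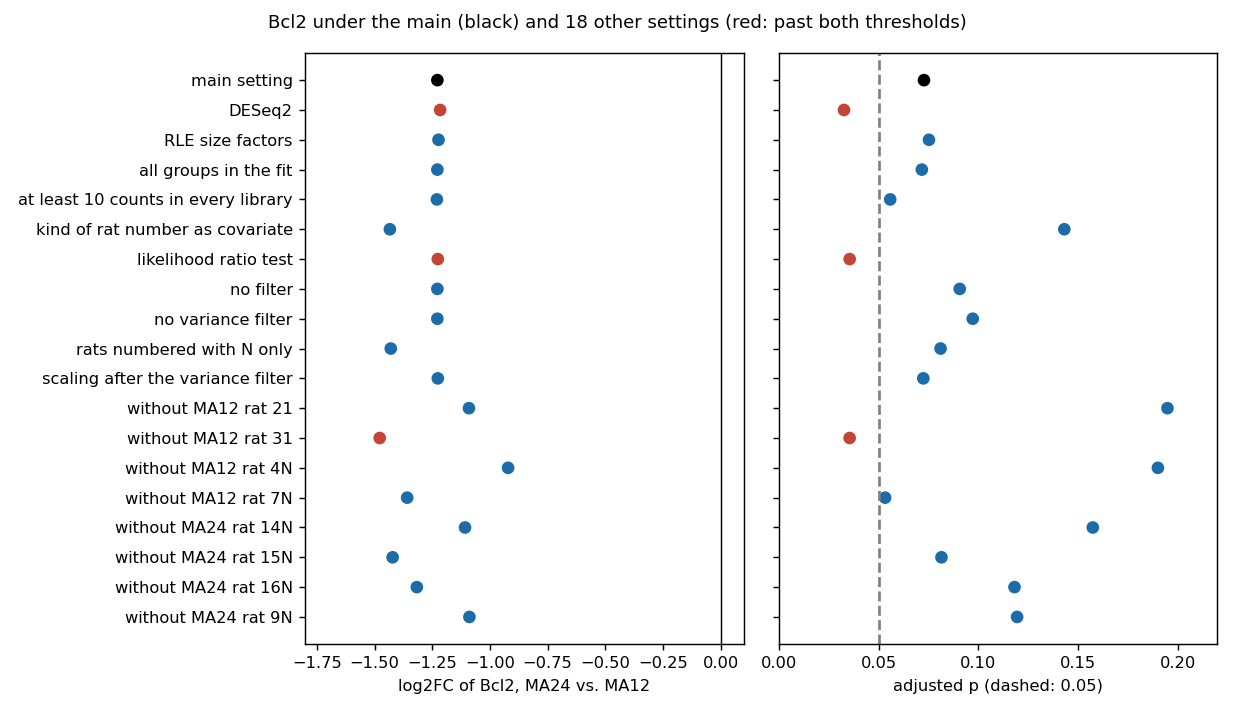
Log2FC (left x axis) and adjusted p (right x axis) of *Bcl2* in MA24 vs. MA12 under the main setting, in black, and 18 other settings of processing, test or rats. Every log2FC lies below -0.9, and 3 settings, in red, pass both thresholds, with adjusted p of 0.0325, 0.0353 and 0.0353.

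Against the non-addicted rats, *Bcl2* had a log2FC of -0.26 in non-addicted vs. MA12 (95% confidence interval -1.05 to 0.53, edgeR adjusted p = 0.835). This interval still includes a level lower by more than an FC of 1.5. In non-addicted vs. MA24 the log2FC was 0.98 (SE 0.37, 95% confidence interval 0.20 to 1.75, edgeR adjusted p = 0.200). The non-addicted rats 11, 12 and 13 lay above all MA24 rats, and rat 9 lay inside the MA24 range. The unadjusted p was 0.0163 in edgeR and 0.0857 in the exact permutation test. Over 16 other settings the log2FC lay between 0.68 and 1.17 with edgeR or DESeq2 adjusted p of 0.118 to 0.441.

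*Bcl2l1* encodes BCL-XL, the main guardian in adult neurons. Its levels were 7.38, 7.28, 7.43 and 7.34 in MA12, 7.51, 7.40, 7.37 and 7.50 in MA24, and 7.03, 7.36, 7.23 and 7.52 in non-addicted rats. The MA12 and MA24 rats lay within a narrow band, and the non-addicted rats reached below it and just above it. The log2FC was 0.08 in MA24 vs. MA12 (95% confidence interval -0.06 to 0.23, edgeR adjusted p = 0.498), so a change by an FC of 1.5 lies outside the interval. It was -0.07 in non-addicted vs. MA12 (-0.30 to 0.15) and -0.15 in non-addicted vs. MA24 (-0.37 to 0.07).

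*Bcl2l2* encodes BCL-W, a guardian important for axon and neuron survival. It stood at 7.35, 7.45, 7.69 and 7.49 in MA12, 7.63, 7.55, 7.66 and 7.59 in MA24, and 7.54, 7.64, 7.53 and 7.66 in non-addicted rats. All 12 rats thus lay close together, with a pooled SD within groups of 0.0955 log2 units. The log2FC was 0.11 in MA24 vs. MA12 (95% confidence interval -0.09 to 0.31), 0.09 in non-addicted vs. MA12 (-0.12 to 0.29) and -0.02 in non-addicted vs. MA24 (-0.16 to 0.13), with edgeR adjusted p of 0.498, 0.767 and 0.917.

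*Mcl1* encodes a guardian whose protein is made and destroyed quickly. Levels were 5.02, 4.96, 4.89 and 5.30 in MA12, 5.13, 5.23, 5.12 and 4.83 in MA24, and 4.95, 5.20, 5.10 and 5.19 in non-addicted rats. No group stood apart. The log2FC was 0.04 in MA24 vs. MA12 (95% confidence interval -0.21 to 0.28), 0.06 in non-addicted vs. MA12 (-0.17 to 0.29) and 0.03 in non-addicted vs. MA24 (-0.21 to 0.26), and the intervals exclude an FC of 1.5 in either direction.

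Both pore formers had their highest group mean in MA24. *Bax*, whose protein moves from the cytosol to the mitochondrion when activated, had counts of 1174, 1341, 1162 and 934 in MA12, 1309, 1436, 1057 and 1255 in MA24, and 1162, 1014, 1142 and 1049 in non-addicted rats. As log2 CPM these were 5.63, 5.81, 5.77 and 5.72, then 5.82, 6.15, 5.77 and 6.05, and 5.92, 5.65, 5.55 and 5.77. Of the MA24 rats, 9N, 14N and 16N lay above all MA12 rats and 15N lay among them. In MA24 vs. MA12 the log2FC was 0.22 (SE 0.11, 95% confidence interval -0.0029 to 0.44), with p = 0.0528 and adjusted p = 0.216 in edgeR, and the exact permutation p was 0.114. In non-addicted vs. MA24 it was -0.23 (-0.46 to 0.01, edgeR adjusted p = 0.301), and in non-addicted vs. MA12 it was -0.01 (-0.22 to 0.20, edgeR adjusted p = 0.974).

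*Bak1*, whose protein sits in the mitochondrial membrane at all times, had counts of 397, 440, 403 and 277 in MA12, 532, 441, 354 and 382 in MA24, and 335, 387, 413 and 370 in non-addicted rats. The levels were 4.07, 4.21, 4.25 and 3.98 in MA12, 4.52, 4.45, 4.19 and 4.34 in MA24, and 4.13, 4.26, 4.09 and 4.27 in non-addicted rats. As for *Bax*, the MA24 rats 9N, 14N and 16N lay above all MA12 rats, and rat 15N did not. The log2FC in MA24 vs. MA12 was 0.25 (SE 0.12, 95% confidence interval -0.01 to 0.51), with p = 0.0569 and adjusted p = 0.225 in edgeR, and the exact permutation p was 0.0857. In non-addicted vs. MA24 it was -0.19 (-0.45 to 0.06), and in non-addicted vs. MA12 it was 0.05 (-0.20 to 0.30). Neither pore former passed the thresholds under any setting.

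**Figure D3:**
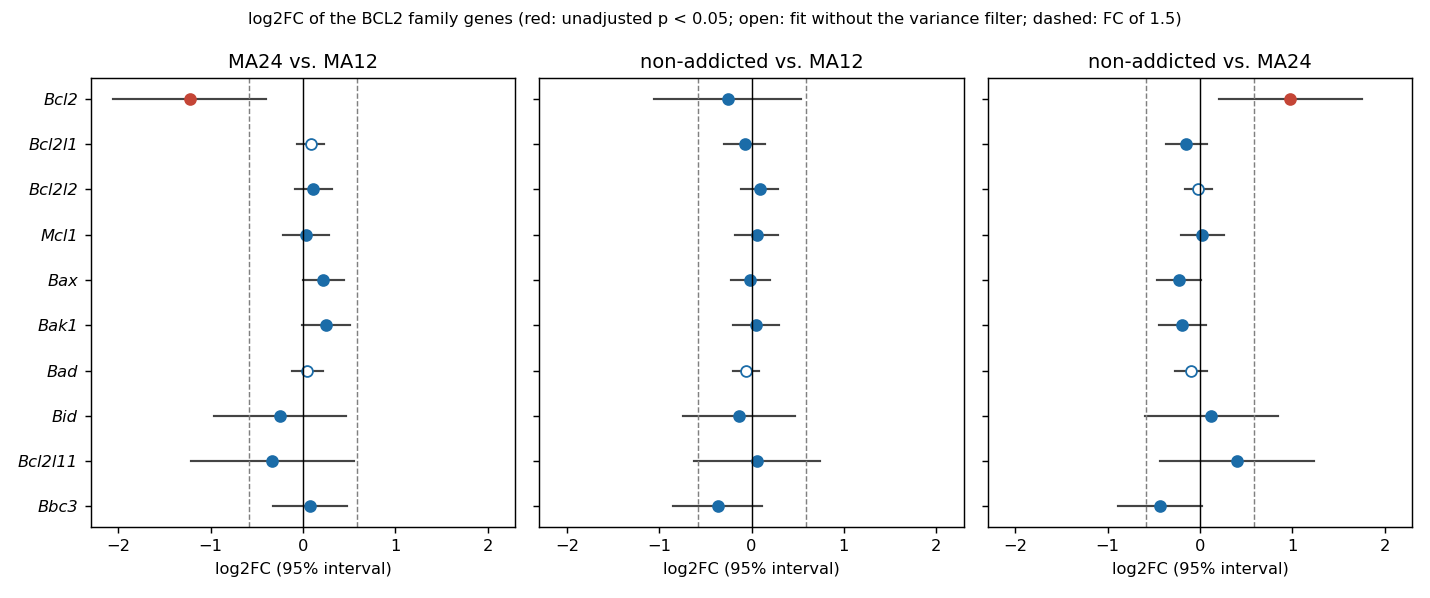
Log2FC (x axis) of each gene in the 3 comparisons with its 95% confidence interval (bars), where red marks an unadjusted p below 0.05, open points mark genes read from the fit without the variance filter, and dashed lines mark an FC of 1.5. Only *Bcl2* is red, at -1.23 in MA24 vs. MA12 and 0.98 in non-addicted vs. MA24, and the intervals of *Bid* and *Bcl2l11* are also wide.

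The difference of log2 CPM between *Bax* and *Bcl2* in the same rat, an mRNA form of the BAX to BCL2 ratio that is often used as a readout of the family's balance, was 3.61, 5.25, 3.44 and 4.49 in MA12 rats. It was 5.76, 6.04, 4.81 and 5.30 in MA24 rats and 5.19, 3.58, 4.02 and 4.65 in non-addicted rats. Group means were 4.20 ± 0.84, 5.48 ± 0.54 and 4.36 ± 0.71. Only differences between rats carry meaning here, since the genes differ in length. The MA24 rats 9N, 14N and 16N had the highest values of the 12 rats, and MA12 rat 31 and non-addicted rat 9 lay above MA24 rat 15N. These values describe the rats and were not tested. Most of the spread came from *Bcl2*, whose levels ranged over 2.27 log2 units across the 12 rats, against 0.596 for *Bax*.

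**Figure D4:**
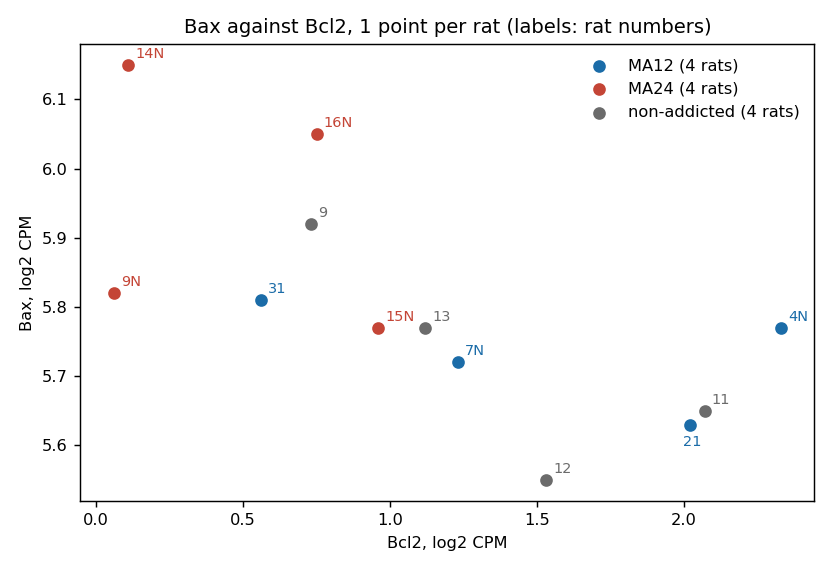
Level of *Bax* (y axis, log2 CPM) against that of *Bcl2* (x axis, log2 CPM) with 1 point per rat, labelled by rat number, for the 4 MA12, 4 MA24 and 4 non-addicted rats. MA24 rats lie to the left, with *Bcl2* at 0.06 to 0.96, where MA12 rat 31 and non-addicted rat 9 also lie.

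The BH3-only genes showed no call and no common direction. *Bad*, whose protein is kept inactive in the cytosol by phosphorylation and 14-3-3 binding, was the steadiest member, with a pooled SD within groups of 0.0878. Its levels were 6.07, 6.07, 6.15 and 6.13 in MA12, 5.96, 6.16, 6.23 and 6.25 in MA24, and 6.10, 6.11, 6.0 and 6.01 in non-addicted rats. The log2FC was 0.05 in MA24 vs. MA12 (95% confidence interval -0.12 to 0.22), -0.06 in non-addicted vs. MA12 (-0.20 to 0.08) and -0.10 in non-addicted vs. MA24 (-0.27 to 0.08).

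*Bid*, whose protein is cut by caspase-8 and so links death receptors to mitochondria, had low counts of 50, 67, 45 and 42 in MA12, 28, 28, 57 and 46 in MA24, and 41, 55, 50 and 33 in non-addicted rats. The MA24 rats split into 9N and 14N, below all other rats, and 15N and 16N, which were among the higher ones. The log2FC was -0.25 in MA24 vs. MA12 (95% confidence interval -0.96 to 0.46, edgeR adjusted p = 0.689), -0.13 in non-addicted vs. MA12 (-0.74 to 0.47) and 0.12 in non-addicted vs. MA24 (-0.60 to 0.85). A level lower by an FC of 1.5 lay inside all 3 intervals, and a level higher by as much inside the last. The MA24 vs. MA12 value rested on single rats, at -0.50 without rat 15N and -0.07 without rat 9N (edgeR adjusted p = 0.437 and 0.927).

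*Bcl2l11* encodes BIM, a strong activator of BAX that FOXO factors and JNK are known to induce in neurons. Its counts were 30, 79, 57 and 42 in MA12, 28, 25, 79 and 22 in MA24, and 35, 61, 73 and 43 in non-addicted rats. The levels were 0.44, 1.76, 1.47 and 1.30 in MA12, 0.38, 0.41, 2.05 and 0.33 in MA24, and 0.94, 1.63, 1.63 and 1.22 in non-addicted rats. MA24 rats 9N, 14N and 16N were the lowest of all 12 rats, and MA24 rat 15N was the highest. With all 4 MA24 rats, the log2FC was -0.33 in MA24 vs. MA12 (95% confidence interval -1.22 to 0.55, edgeR adjusted p = 0.662) and 0.40 in non-addicted vs. MA24 (-0.44 to 1.24, edgeR adjusted p = 0.612). Without rat 15N, these were -0.999 (edgeR adjusted p = 0.162) and 1.07 (edgeR adjusted p = 0.203), so that rat set the size of both values but no call. In non-addicted vs. MA12 the log2FC was 0.06 (-0.62 to 0.74).

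*Bbc3* encodes PUMA, a p53 target that binds all guardians. It had counts of 160, 251, 184 and 120 in MA12, 178, 147, 181 and 195 in MA24, and 184, 100, 128 and 111 in non-addicted rats. As log2 CPM these were 2.77, 3.40, 3.13 and 2.78, then 2.95, 2.88, 3.23 and 3.38, and 3.27, 2.33, 2.42 and 2.55. The non-addicted rats 11, 12 and 13 lay below every MA12 and every MA24 rat, and rat 9 lay high among them. The log2FC was -0.37 in non-addicted vs. MA12 (SE 0.23, 95% confidence interval -0.85 to 0.11, edgeR adjusted p = 0.549) and -0.44 in non-addicted vs. MA24 (SE 0.22, -0.89 to 0.02, edgeR adjusted p = 0.299). Without non-addicted rat 9, these were -0.62 (edgeR adjusted p = 0.288) and -0.70 (edgeR adjusted p = 0.0901), and the first was -0.22 without MA12 rat 31 (edgeR adjusted p = 0.765). MA24 and MA12 rats differed by 0.08 (-0.33 to 0.48, edgeR adjusted p = 0.846).

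Over the 10 members, the log2FC was above 0 for 7 and below 0 for 3 in MA24 vs. MA12, with a median of 0.06 against -0.02 over all genes tested. In both comparisons with non-addicted rats it was above 0 for 4 and below 0 for 6, with medians of -0.04 for MA12 and -0.06 for MA24. The spread within groups differed between members. The pooled SD was 0.624 for *Bcl2*, 0.618 for *Bcl2l11*, 0.387 for *Bid* and 0.333 for *Bbc3*, and 0.0878 to 0.159 for the other 6. Counting error alone would give 0.204 for *Bcl2*, 0.209 for *Bcl2l11* and 0.215 for *Bid*, so the rats of a group spread 3.06, 2.96 and 1.80 times as far as the counts' own error. For *Bcl2l1* and *Bcl2l2*, with 2507 to 4606 counts per rat, the spread was 5.32 and 4.17 times the counting error and still small in size. The order of group means was MA12, non-addicted, MA24 from high to low for *Bcl2* and *Bid*, and MA24, MA12, non-addicted for *Bcl2l1*, *Bax*, *Bad* and *Bbc3*, but no neighbours in these orders differed past the thresholds.

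Among 10765 genes with a mean count of at least 50, those whose level followed that of *Bcl2* most closely over the 12 libraries included *Synpo2* (Pearson r = 0.908, Spearman rho = 0.937), *Atp2c1* (0.856 and 0.867), *Casr* (0.849 and 0.797) and *St6galnac5* (0.847 and 0.811). The libraries share their groups and scaling, and these were picked as the highest of many genes, so the values are a description with no test. Within groups, with each group's mean removed, the r of *Synpo2* was 0.872. Of the other members, *Bax* had an r of -0.676 with *Bcl2* (-0.467 within groups), *Bak1* of -0.535 (-0.141), *Bid* of 0.441 (0.305), *Bbc3* of -0.425 (-0.369) and *Bcl2l11* of 0.375 (0.174). The rest lay nearer 0: *Bcl2l1* had an r of -0.02 (0.36 within groups), *Bcl2l2* of 0.001 (0.39), *Mcl1* of -0.11 (-0.12) and *Bad* of 0.05 (0.41).

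Around the 10 members, 7 lists of the apoptosis pathway were examined in MA24 vs. MA12, and 3 of their 50 tested genes passed the thresholds, against 2.44% of all genes tested. The list of 14 other family members had 0 DEGs among 12 tested, and its median log2FC was -0.01, as was that of all genes before the variance filter, the scale used for all list medians. Of these, *Bmf*, a BH3-only gene tied to the cytoskeleton, had a log2FC of -0.57 (edgeR adjusted p = 0.170), and *Bcl2l13*, a family member of the mitochondrial outer membrane with a role in mitophagy, one of -0.47 (edgeR adjusted p = 0.117). The mitochondrial partners had 0 DEGs among 3 tested (median -0.04), with *Mtch2*, a membrane receptor for cleaved BID, at a log2FC of -0.07 and *Tmbim6*, a BAX inhibitor of the endoplasmic reticulum, at -0.05. The p53 pathway had 0 DEGs among 8 tested (median -0.05). In it, *Cdkn1a*, the cell cycle inhibitor p21, had a log2FC of 0.41 (edgeR adjusted p = 0.129) and *Mdm4*, a p53 inhibitor, one of -0.33 (edgeR adjusted p = 0.237).

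Downstream of the pore, the inhibitors of apoptosis had 1 DEG among 5 tested (list median -0.06), *Xiap*, whose protein blocks initiator and executioner caspases. *Xiap* was lower in MA24 than in MA12, with counts of 658, 640, 510 and 360 in MA12, 427, 252, 270 and 299 in MA24, and 377, 407, 496 and 455 in non-addicted rats. The log2 CPM of MA24 and MA12 rats did not overlap, and the log2FC was -0.71 (SE 0.14, edgeR adjusted p = 0.0110). *Xiap* passed the thresholds in 16 of 18 other settings, the exceptions being the N rats alone (adjusted p = 0.119 in edgeR) and the N of the rat numbers as a covariate (adjusted p = 0.129).

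The apoptosome and caspase list had 1 DEG among 11 tested (list median 0.06), *Dffb*, the nuclease that caspases release to cut DNA. *Dffb* was higher in MA24 than in MA12, with counts of 171, 162, 116 and 102 in MA12, 201, 254, 196 and 177 in MA24, and 162, 187, 188 and 137 in non-addicted rats. Its log2FC was 0.69 (SE 0.18, edgeR adjusted p = 0.0351), without overlap between groups, but it passed in only 9 of 18 other settings. The call was lost when any rat but MA24 rat 9N was left out, with edgeR adjusted p of 0.0577 (without MA12 rat 31) to 0.121 (without MA24 rat 14N), within the N rats alone (0.0652) and with the N as a covariate (0.0953). The log2FC lay between 0.57 and 0.86 over the 18 settings. *Apaf1*, the scaffold of the apoptosome, had a log2FC of -0.40 (edgeR adjusted p = 0.0851).

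Of the 5 regulators of MCL1 turnover listed, *Huwe1* and *Fbxw7* had no entry in the count table. Among the 3 tested, 1 was a DEG (list median -0.43), *Gsk3b*, a kinase that marks MCL1 for destruction. *Trim17*, with 29 to 56 counts, had a log2FC of 0.39 (edgeR adjusted p = 0.477). *Gsk3b* was lower in MA24 than in MA12. Its counts were 1412, 1666, 1388 and 1110 in MA12, 1252, 540, 914 and 728 in MA24, and 770, 1065, 1256 and 1086 in non-addicted rats. Non-addicted rats had a log2FC of -0.37 against MA12, without overlap (edgeR adjusted p = 0.154). Against MA24 theirs was 0.27, with overlap (edgeR adjusted p = 0.388). MA24 and MA12 rats did not overlap in log2 CPM. In MA24 vs. MA12 the log2FC was -0.63 (SE 0.15, edgeR adjusted p = 0.0247), and it passed in 13 of 18 other settings, with adjusted p up to 0.129. The call was lost with the N rats alone (adjusted p = 0.0542 in edgeR), with the N as a covariate (0.129), without MA12 rat 31 (0.0512), without MA24 rat 16N (0.0649), and without MA24 rat 14N, where the FC no longer reached 1.5. *Usp9x*, whose protein removes ubiquitin from MCL1, had an edgeR adjusted p of 0.0187 and a log2FC of -0.43, below the FC threshold. *Mcl1* itself, as given above, had a log2FC of 0.04.

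Regulators of BAD and BIM had 0 DEGs among 8 tested, with a median log2FC of -0.14. By unadjusted p below 0.05 in edgeR, 4 lay lower in MA24 and 0 higher, against 23.7% of genes in either direction. These included *Mapk10*, with a log2FC of -0.34 (edgeR adjusted p = 0.0529) and no overlap between groups. *Foxo3* and *Foxo1*, transcription factors known to induce *Bcl2l11*, had log2FC of -0.62 (edgeR adjusted p = 0.0626) and -0.35 (edgeR adjusted p = 0.0896). In the comparisons of non-addicted rats with MA12 and with MA24, edgeR called 0 genes of the 7 lists.

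**Figure D5:**
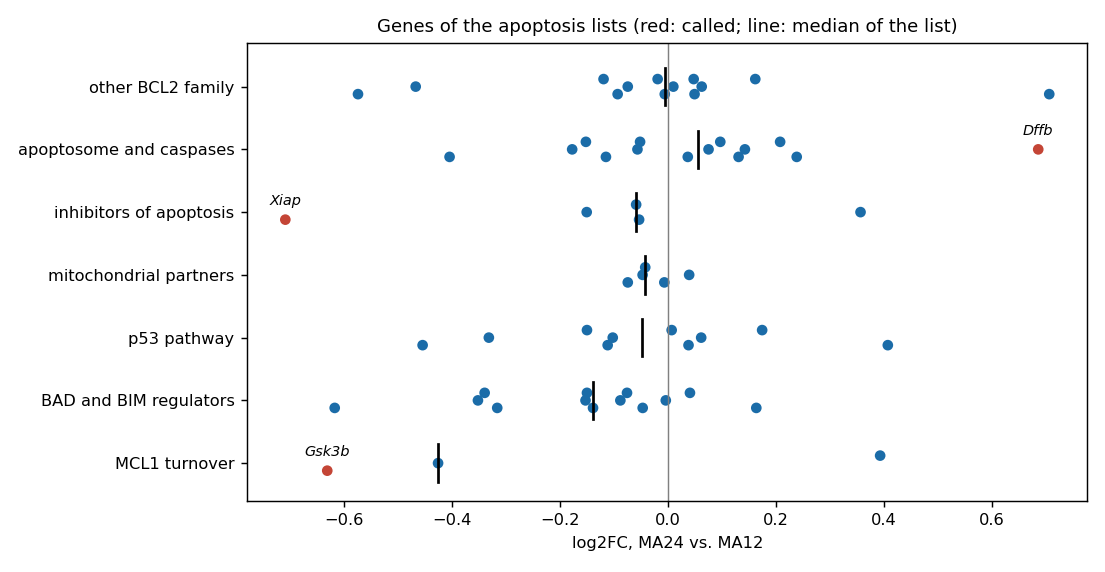
Log2FC in MA24 vs. MA12 (x axis) of each gene with enough counts in 7 apoptosis lists (y axis), with called genes in red and the median of each list as a black line. The called genes are *Xiap* at -0.71, *Gsk3b* at -0.63 and *Dffb* at 0.69, and most other points lie near 0.

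Some cell type markers differed in these comparisons. In MA24 vs. MA12, 1 of 6 astrocyte markers (*Slc1a2*) and 1 of 4 tested thalamic and hypothalamic markers (*Prkcd*) were called lower in MA24, against 2.44% of genes. The astrocyte markers had no common direction: by unadjusted p below 0.05 in edgeR, 1 lay lower (*Slc1a2*) and 1 higher (*Gja1*, log2FC 0.21, edgeR adjusted p = 0.197). *Prkcd* was called in 15 of 18 other settings and *Slc1a2* in 8, and neither was called within the N rats alone. *Slc1a2* was also lost with DESeq2 (adjusted p = 0.0865) and a fit of all groups (0.0892). The summed astrocyte level was 2171 to 2509 CPM in MA12 and 1995 to 2291 CPM in MA24, and the thalamic and hypothalamic sum was 29.9 to 65.4 CPM and 24.7 to 29.1 CPM, with *Pmch* at 0 in all rats. In non-addicted vs. MA24, where *Bcl2* had its other low unadjusted p, 2 of 6 endothelial markers (*Cldn5* and *Kdr*) were called lower in non-addicted rats, against 0.363% of genes called, and all 6 had an unadjusted p below 0.05 in edgeR and lay lower, against 17.5% of genes in either direction, with sums of 296 to 408 CPM against 466 to 516 CPM in MA24. There 7 of 7 oligodendrocyte markers also had an unadjusted p below 0.05 in edgeR and lay lower in non-addicted rats, with sums of 11750 to 16630 CPM against 17030 to 20380 CPM. Of 7 markers of ependyma and choroid plexus, 5 had an unadjusted p below 0.05 in edgeR and lay higher in non-addicted rats, with a list median log2FC of 0.89 and sums of 55.3 to 111.5 CPM against 46.7 to 64.0 CPM, and *Foxj1* was called. Of 16 other settings, *Cldn5* was called in 10, *Kdr* in 8 and *Foxj1* in 8. In non-addicted vs. MA12, 1 of 10 striatal projection neuron markers (*Pdyn*) and 1 of 6 endothelial markers (*Kdr*) were called lower in non-addicted rats, against 0.214% of genes. Of 18 other settings, *Pdyn* was called in 12 and *Kdr* in 16. In that comparison, 4 of 6 endothelial and 2 of 7 oligodendrocyte markers had an unadjusted p below 0.05 in edgeR and lay lower in non-addicted rats. Of 7 markers of ependyma and choroid plexus, 3 lay higher at that p (list median log2FC 0.56). The share of all genes at that p was 12.4% in either direction. No marker of cortical neurons or microglia was called in any comparison by edgeR. Of 3 cortical markers tested in MA24 vs. MA12, 1 had an unadjusted p below 0.05 in edgeR. It was *Slc17a7*, higher in MA24 with a log2FC of 1.03 (edgeR adjusted p = 0.0712) and overlapping groups. Of 9 projection neuron markers tested there, 2 lay higher and 2 lower at that p. *Pdyn* was lower, with a log2FC of -0.58 (edgeR adjusted p = 0.00735), below the FC threshold. The part of these markers in the levels of *Bcl2*, *Bbc3*, *Xiap*, *Gsk3b* and *Dffb* was not tested.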

How the data were processed

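Striatal poly-A RNA of 12 rats was sequenced. By the submitters' processing notes, cutadapt 1.18 trimmed the reads, STAR 2.7.0e placed them on rn6 and featureCounts counted them, and HTSeq 0.12.4 is also named. The values the authors deposited are raw counts per gene, without normalization. Counting settings for strand and for reads with several positions are not given in the sources used here, so counts of overlapping genes are uncertain. Columns of the table were matched to samples by rat number, and all were used.

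The analysis used edgeR 4.0.16 (R 4.3.3). Library sizes and TMM factors came from all genes with a count. Each comparison kept genes whose mean count over its 8 libraries was above 4, less the 15% whose log2 CPM (prior count 2) varied least. The 2 groups alone were then fitted by glmQLFit and tested by glmQLFTest, and p-values were adjusted by Benjamini-Hochberg over all genes tested. The variance filter removed *Bcl2l1* and *Bad* in MA24 vs. MA12, *Bad* in non-addicted vs. MA12, and *Bcl2l2* and *Bad* in non-addicted vs. MA24, whose values come from the fit without it. Exact permutation tests, two-sided, ran in Python 3.11.15 (pandas 2.3.3, scipy 1.17.1, numpy 2.4.6).

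All 10 members are named, and of the pathway lists every gene called, plus genes with the largest absolute log2FC at a mean count of at least 50, and the genes most like *Bcl2* over the libraries, of which 1 is not reported here. The lists were other BCL2 family, apoptosome and caspases, inhibitors of apoptosis, mitochondrial partners, p53 pathway, BAD and BIM regulators, MCL1 turnover, and cell type markers. Members and lists were chosen with earlier results of these data known. Alternatives were DESeq2 1.42.0, the likelihood ratio test, RLE factors, looser or stricter filters, a fit of all 3 groups, leaving out each rat, the N of the rat numbers (rats of 1 kind alone, or as a covariate) and, chosen after seeing the data, scaling after the variance filter. On simulated counts for MA24 vs. MA12 (10754 genes), 158 of 200 genes changed 2-fold were recovered with 3 false calls. For non-addicted vs. MA12, 150 of 200 were recovered with 7 false calls, and for non-addicted vs. MA24, 146 of 200 with 11. The changed genes were drawn at random from all genes tested, so these values do not give the recovery for members with low counts.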

Additional observations from a re-analysis of the deposited data

Results flagged for a closer look

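*Bcl2l11* in MA24 rat 15N stood apart from the other rats of its group, with 79 counts (2.05 log2 CPM) against 22 to 28 counts (0.33 to 0.41 log2 CPM) in rats 9N, 14N and 16N. The gap to the nearest rat was 0.953 of the range of the group. With 10 genes in 3 groups, 30 groups of 4 rats were examined, of which chance alone would mark about 1 in 20, or 1.5, and 1 was marked. Without rat 15N the log2FC of *Bcl2l11* was -0.999 in MA24 vs. MA12 and 1.07 in non-addicted vs. MA24, and neither was called.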

How the results depend on the processing

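With 4 rats a group and 20 to 105 counts a rat for *Bcl2*, *Bid* and *Bcl2l11*, the intervals of these genes in each comparison include an FC of 1.5 in at least 1 direction. Over the 3 comparisons, the log2FC of the 10 members was recomputed under 491 alternatives. In 464 the direction and the side of the thresholds stayed, in 3 a call was gained, in 0 lost, and in 24 the sign turned, none for a main log2FC larger than 0.26 in size. The number of members called in MA24 vs. MA12 was 1 of 8 tested with DESeq2 and 1 of 8 with the likelihood ratio test. It was 0 to 1 when each rat was left out, where the call came without MA12 rat 31. The share of all genes called under these settings is not given here, so these counts have no background. No other setting called a member in any comparison.

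The sign turned for *Mcl1* in MA24 vs. MA12, to -0.0182 with the N of the rat numbers as a covariate and -0.0153 with the N rats alone, and for *Bax* in non-addicted vs. MA12, to 0.00939 in rats without N. With total counts in place of TMM, the level difference was -0.0169 for *Mcl1* and -0.00813 for *Bad* in MA24 vs. MA12, and 0.0266 for *Bcl2l2* in non-addicted vs. MA24. With each rat left out, the log2FC in MA24 vs. MA12 ranged from -0.0158 to 0.122 for *Mcl1* and -0.0198 to 0.221 for *Bbc3*. In non-addicted vs. MA12 it ranged from -0.154 to 0.257 for *Bcl2l11*, -0.0737 to 0.0406 for *Bax*, -0.546 to 0.0456 for *Bcl2* and -0.159 to 0.0149 for *Bcl2l1*. In non-addicted vs. MA24 it ranged from -0.0581 to 0.37 for *Bid*, -0.0394 to 0.00381 for *Bcl2l2* and -0.0497 to 0.0776 for *Mcl1*. The cause was not tested. No paired analysis was possible because each rat gave 1 library and belonged to 1 group.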
